A study of Mus musculus with 176 samples.

Results

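The NR4A and EGR genes are the classical early response of a T cell to its antigen receptor, and 6 of them (Nr4a1, Nr4a2, Nr4a3, Egr1, Egr2 and Egr3) were followed here by name in the 53546 gene names of a count table of single CD4 T cells. Nr4a1 (Nur77), Nr4a2 (Nurr1) and Nr4a3 (Nor1) encode orphan nuclear receptors that bind DNA without a known physiological ligand. Egr1, Egr2 and Egr3 encode zinc finger factors that bind GC-rich promoter elements and are held back by the NAB corepressors. In T cells, engagement of the receptor switches these genes on within a short time through calcium, ERK and CREB or SRF, their RNA is short-lived, and a Nur77 reporter is widely used to read recent receptor signals. Egr2, Egr3 and the NR4A factors are also known for restraint of T cells, in tolerance, exhaustion and regulatory T cells (Tregs).

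The cells came from female mice of the inbred strain C57BL/6J that received 100 µg of the ApoB peptide P6 in complete Freund's adjuvant at 7 weeks of age and in incomplete adjuvant at 9 weeks. At 11 weeks, inguinal and para-aortic lymph nodes were taken and enriched for CD4 T cells. All cells compared shared the immunization and a sort gate for antigen-experienced cells that included TCRβ+, CD4+ and CD44hi. P6+ cells bound the P6:I-Ab tetramer in 2 colours and P6- cells bound it in neither. All cells were also treated with 50 nM dasatinib, an inhibitor of Src family kinases that keeps receptors at the surface during staining, before they were sorted 1 per well and converted to full-length cDNA by Smart-Seq2. The 32 P6+ cells came from 1 mouse, so cells are described and not tested as replicates. By the study's methods, tetramer-positive and tetramer-negative cells were sorted from separate portions of a sample. The labels tie no P6- cell to a mouse, so whether each P6- cell came from that same mouse is not given in the sources used here. The P6- cells bore 8 name prefixes (P2 to P9), whose meaning the labels do not give. All P6+ cells and 12 of the P6- cells carried the prefix P6, a part of the cell name that is unrelated to the name of the peptide.

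After removal of cells with under 500000 reads, under 2000 genes or 10% or more mitochondrial reads, 161 cells remained, namely all 32 P6+ cells and 89.6% of the P6- cells, of which 11 had the prefix P6. Reads on genes ranged from 956280 to 3332191 in the P6+ cells and from 522188 to 3401372 in the P6- cells. The cells of the same prefix differed by sort in other ways. Mitochondrial reads had a median of 1.29% in P6+ and 6.45% in P6- cells of prefix P6, and the genes detected had a median of 4396 and 3674. All 11 T cell identity genes, among them Cd3e, Cd4 and Trac, were read in each group. Of 20 markers of other cells, 13 had no read in P6+ cells. Cd74 reached 10 reads in 14 P6+ cells (43.8%), in 2 of the 11 P6- cells of prefix P6 (18.2%) and in 17 P6- cells of all prefixes (13.2%). Cd79b reached 10 reads in 2 P6+ cells and in no P6- cell, and Cd8b1 in 2 P6- cells of other prefixes and in no P6+ cell. The part of these markers in the results was not tested. Cd79a, Itgam and Adgre1 were at or near 0 in all groups. The summed level of the identity genes was 3302 to 13215 counts per 1000000 reads (cpm) in P6+ cells and 65.03 to 19171 cpm in P6- cells, of which 7 lay below every P6+ cell.

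The promoters of the NR4A genes are shown because all 3 carry the same short element several times. The windows run from 250 bases before to 50 after a start of transcription (RefSeq, GRCm38.p6) and are written along the strand of the gene. Capitals mark the core of the cAMP-response element, the site of CREB and ATF factors, which reads TGACG on one strand and CGTCA on the other, and in Egr2 also a CArG box, the site of SRF. Nr4a1 lies at chr15:101266596-101266895 (plus strand), Nr4a2 at chr2:57123954-57124253 (minus strand), Nr4a3 at chr4:48045055-48045354 (plus strand) and the middle of the 5 listed starts of Egr2 at chr10:67537619-67537918 (plus strand).
Nr4a1: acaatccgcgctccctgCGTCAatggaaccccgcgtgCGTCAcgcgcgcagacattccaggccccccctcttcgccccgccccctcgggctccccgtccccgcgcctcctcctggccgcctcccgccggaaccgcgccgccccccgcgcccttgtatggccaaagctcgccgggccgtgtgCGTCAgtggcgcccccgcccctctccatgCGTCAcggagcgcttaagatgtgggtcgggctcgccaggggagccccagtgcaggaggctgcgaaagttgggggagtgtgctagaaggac
Nr4a2: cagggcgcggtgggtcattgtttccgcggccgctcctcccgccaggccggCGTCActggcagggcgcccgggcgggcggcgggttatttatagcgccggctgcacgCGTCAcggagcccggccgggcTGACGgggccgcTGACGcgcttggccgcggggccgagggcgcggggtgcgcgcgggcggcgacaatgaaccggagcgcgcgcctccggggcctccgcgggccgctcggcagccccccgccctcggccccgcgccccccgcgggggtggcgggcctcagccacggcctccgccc
Nr4a3: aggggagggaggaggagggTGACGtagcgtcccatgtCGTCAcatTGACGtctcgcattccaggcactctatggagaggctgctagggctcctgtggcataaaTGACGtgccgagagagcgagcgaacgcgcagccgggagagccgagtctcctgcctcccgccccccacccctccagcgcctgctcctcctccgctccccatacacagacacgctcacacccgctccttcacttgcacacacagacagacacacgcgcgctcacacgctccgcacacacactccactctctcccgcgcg
Egr2: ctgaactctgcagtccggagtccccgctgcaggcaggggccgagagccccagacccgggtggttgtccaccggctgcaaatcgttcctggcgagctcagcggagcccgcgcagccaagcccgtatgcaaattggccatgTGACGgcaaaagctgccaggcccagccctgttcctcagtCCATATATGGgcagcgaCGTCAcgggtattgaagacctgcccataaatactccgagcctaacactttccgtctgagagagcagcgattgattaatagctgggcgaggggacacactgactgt

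Each NR4A promoter held 4 of these cores, a number reached by 76 of 32851 promoter windows in the table (0.231%). Egr2 had 5 windows, of which the middle one is shown. It held 2 cores and 1 CArG box, as did the 2 windows after it, while the first window held neither and the second no core and 1 CArG box. At least 2 cores were found in 5.01% and at least 1 in 20.8% of all windows, and 1.63% held a CArG box. These matches describe letters and are not evidence of binding. Egr1 and Egr3 were not analysed at the sequence level here. The genes themselves lie, in the GENCODE annotation of GRCm38, at chr15:101254269-101274795 (Nr4a1), chr2:57106830-57124003 (Nr4a2), chr4:48045153-48086447 (Nr4a3), chr18:34859823-34864984 (Egr1), chr10:67535475-67542188 (Egr2) and chr14:70077203-70082614 (Egr3).

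In single cells the 6 genes had either few reads or many. Among the 192 values of the P6+ cells (6 genes in 32 cells), 58.3% were 0 reads and 64 values were 1 to 9 reads. None lay between 10 and 49, 1 lay between 50 and 99, and 15 were 100 reads or more. The 774 values of all P6- cells had the same shape, with 471 at 0, 195 at 1 to 9, 6 at 10 to 49, 7 at 50 to 99 and 95 at 100 or more. A gene was therefore counted as expressed in a cell from 10 reads. Cd4, whose protein was part of the sort gate, reached 10 reads in only 16 of 32 P6+ cells (50%) and in 39 P6- cells of all prefixes (30.2%). Fewer than 10 reads thus does not show that a cell lacked expression of a gene. Intervals given are exact at 95% (Poisson for sums of reads, binomial for shares of cells) and hold counting error alone, because the reads are amplified copies that carry no molecular tags.

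**Figure D1:**
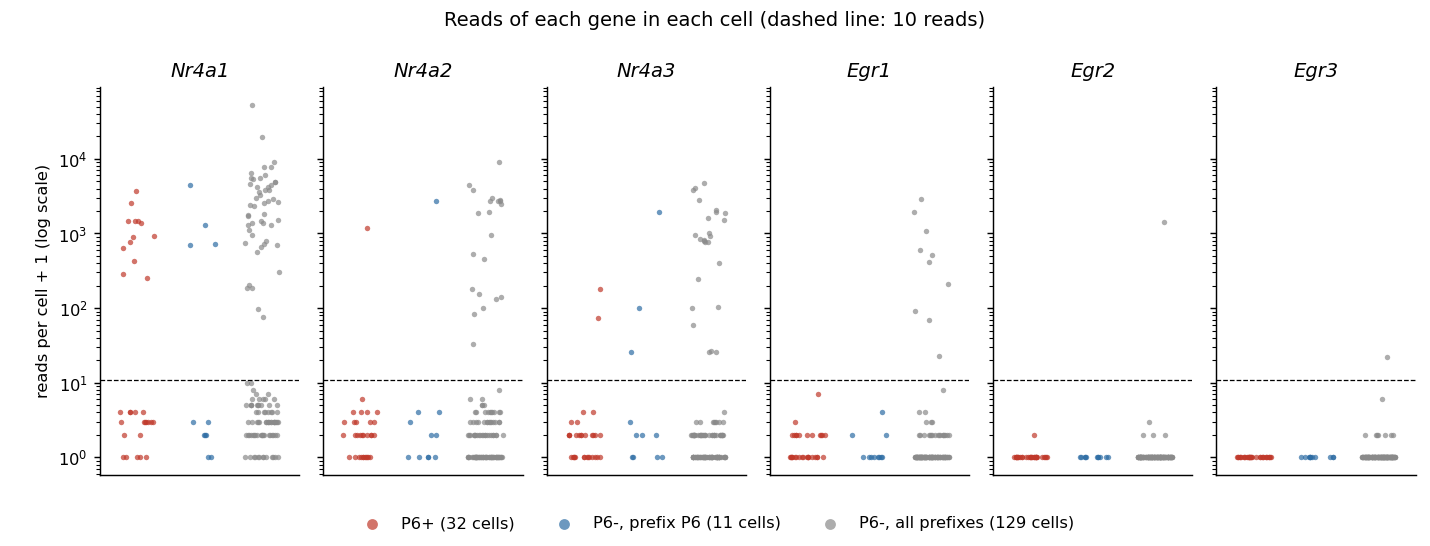
Reads of each gene plus 1 on a log scale, with each point 1 cell, for 32 P6+ cells (red), the 11 P6- cells of prefix P6 (blue) and all P6- cells (grey, which include the blue cells). The dashed line marks 10 reads. In P6+ cells 13 points lie above the line for Nr4a1, 1 for Nr4a2, 2 for Nr4a3 and 0 for the EGR genes.

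Nr4a1, the Nur77 gene, was the main member expressed in P6+ cells. Its reads had a minimum of 0, a median of 3 and a maximum of 3705 in P6+ cells, a median of 2 and a maximum of 4427 in the P6- cells of prefix P6, and a median of 4 and a maximum of 52639 in all P6- cells. It was expressed in 13 of 32 P6+ cells (40.6%, interval 23.7 to 59.4%), in 4 of 11 P6- cells of prefix P6 (36.4%, 10.9 to 69.2%) and in 50 P6- cells of all prefixes (38.8%, 30.3 to 47.7%). The shares were thus close and their intervals overlapped widely.

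Among the cells that expressed Nr4a1, the median level was lower in P6+ cells, while the ranges overlapped. The 13 expressing P6+ cells held 206 to 2391 cpm with a median of 654. The 4 expressing P6- cells of prefix P6 held 423 to 2410 cpm with a median of 1002, within nearly the same range. Across all prefixes the 50 expressing P6- cells held 34.2 to 17427 cpm with a median of 1524, and 37 of them lay above the P6+ median. In 16 of the 50 the level was above that of the highest P6+ cell.

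Pooled over cells (summed reads divided by summed totals), Nr4a1 stood at 274.6 cpm in P6+ cells (interval 270.4 to 278.9), 464 cpm in P6- cells of prefix P6 and 1018 cpm in all P6- cells. The interval leaves out the spread between cells, and 1 P6+ cell held 22.7% of the reads of its pool. The log2 ratio of P6+ over P6-, with 1 cpm added to each level, was -0.75 within the prefix and -1.89 over all prefixes. Without that P6+ cell the ratios were -1.09 and -2.22. A single P6- cell of prefix P6 held 61.8% of the reads of its pool, and without it the ratio was 0.45, so the direction within the prefix rested on that cell. Over all prefixes 1 cell held 25.4% of the Nr4a1 reads, and the ratio without it was -1.49.

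Nr4a2, the Nurr1 gene, was expressed in a single P6+ cell with 1166 reads, which held 96.9% of the reads of the pool, and in the other P6+ cells it did not pass 5 reads. In P6- cells of prefix P6 it was likewise expressed in 1 cell, with 2725 reads, and 21 P6- cells expressed it over all prefixes. The shares were 3.13% of P6+ cells (interval 0.0791 to 16.2%), 9.09% (0.230 to 41.3%) and 16.3% (10.4 to 23.8%). Pooled levels were 20.3, 177 and 198.7 cpm, with log2 ratios of -3.07 within the prefix and -3.23 over all prefixes. The ratio within the prefix compares 1 cell with 1 cell. Without the P6- cell it was 3.62, and without the P6+ cell it was -6.76 and the ratio over all prefixes -6.92. That P6- cell was also the one with 4427 reads of Nr4a1.

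Nr4a3, the Nor1 gene, was expressed in 2 P6+ cells with 72 and 177 reads. In P6- cells of prefix P6 it was expressed in 3 cells with 25, 99 and 1925 reads. Over all prefixes 25 P6- cells expressed it, with 25 to 4814 reads and a median of 840. The highest P6+ cell was thus below the median of the expressing P6- cells. The shares were 6.25% (interval 0.766 to 20.8%), 27.3% (6.02 to 60.97%) and 19.4% (12.95 to 27.3%). Pooled levels were 4.57, 133.01 and 158.9 cpm, and the log2 ratios were -4.59 within the prefix and -4.84 over all prefixes. The P6+ cell with 177 reads held 65.3% of its pool, and without it these ratios were -5.66 and -5.92. The cell with 1925 reads held 93.7% of its pool, and without it the level of the P6- cells of prefix P6 was 10.1 cpm and the log2 ratio within the prefix -0.999.

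Egr1 was not expressed in any of the 32 P6+ cells (0%, which allows a share of up to 9.38% at 3 cells), nor in the 11 P6- cells of prefix P6 (up to 27.3%). Low reads did occur, in 13 P6+ cells with at most 6 reads and in 3 of the P6- cells of prefix P6 with at most 3. The pooled level was 0.32 cpm in both, and the log2 ratio was 0.00. Over all prefixes 10 P6- cells expressed Egr1 (7.75%, 3.78 to 13.8%), with 22 to 2872 reads and a pooled level of 38.7 cpm. The log2 ratio over all prefixes was -4.91, and -4.29 without the P6- cell that held 36.4% of the reads. Each expressing P6- cell carried a prefix that held no P6+ cell, so tetramer binding and prefix cannot be told apart for Egr1.

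Egr2 and Egr3, which with the NR4A genes are known for T cell restraint, were nearly unread. Egr2 had 1 read in all P6+ cells together and none in the P6- cells of prefix P6, while a single P6- cell of prefix P4 held 1440 of the 1445 reads of all P6- cells. Egr3 had no read in any cell of prefix P6 and reached 21 reads in a single P6- cell of prefix P8. With 0 of 32 P6+ cells, an expressing share of up to 9.38% was not detectable for either gene.

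**Figure D2:**
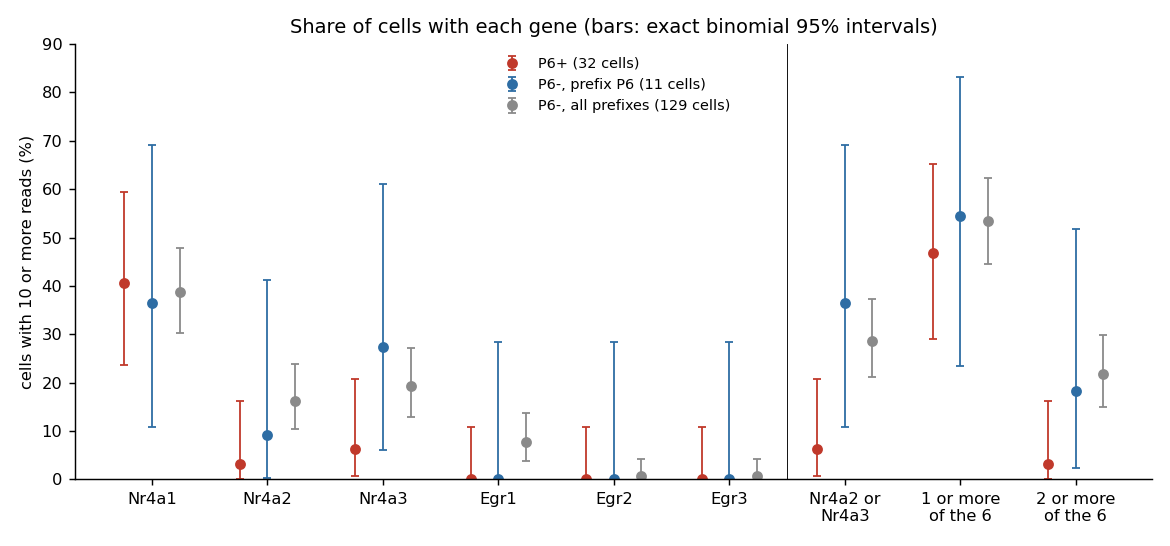
Share of cells with 10 or more reads, in percent, with exact binomial 95% intervals, for each gene and for combinations of genes in P6+ cells (red), P6- cells of prefix P6 (blue) and all P6- cells (grey). The Nr4a1 shares of 40.6, 36.4 and 38.8% lie side by side, and the points for Nr4a2, Nr4a3 and for 2 or more genes are lowest in P6+ cells.

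Genes were counted by a log2 ratio of 1 or -1 or beyond, if they had 20 cpm in the higher pool. Within the prefix 3 of the 6 genes had that level, of which 2 (66.7%, Nr4a2 and Nr4a3) were lower in P6+ cells and 0 higher. Among all 6809 genes with 20 cpm in the higher pool, 25.5% were lower and 47.2% higher by this rule, with a median log2 ratio of 0.73, so that large ratios between a pool of 32 and a pool of 11 cells were common. Over all prefixes 4 of the 6 genes had that level, and all 4 (Nr4a1, Nr4a2, Nr4a3 and Egr1) were lower and 0 higher. Of all 7385 genes with that level 26.7% were lower and 24.3% higher, with a median of 0.01. Without the limit of 20 cpm the count over all prefixes was 5 lower, with Egr2 added (-2.99). Nr4a3 and Egr1 reached 20 cpm only in the P6- pool and could enter the count only as lower. Egr2 and Egr3 did not reach 20 cpm in any of the 3 pools compared.

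None of the 6 shares of expressing cells had an interval apart from that of the P6- cells, within the prefix or over all prefixes. Among genes with at least 5 expressing cells (4602 within the prefix and 8289 over all prefixes), the interval of the P6+ cells lay below that of the P6- cells in 0.109% and above it in 0.761% within the prefix, and in 0.217% and 6.36% over all prefixes. When each cell was thinned to 522188 reads, the shares in P6+ cells did not move, and the largest shift in P6- cells over all prefixes was for Nr4a3, from 19.4% to 17.8%. Thinning moved the log2 ratios within the prefix from -0.75 to -0.34 for Nr4a1, from -3.07 to -2.90 for Nr4a2 and from -4.59 to -3.84 for Nr4a3. Without cells of 5% or more mitochondrial reads, a limit chosen after seeing the data, they were -1.89, -4.35 and -1.61, but this limit left 5 of the 11 P6- cells of prefix P6 beside all 32 P6+ cells.

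The 8 prefix groups of P6- cells, of 11 to 24 cells each, showed how far pools of this size spread without a difference in tetramer binding. Nr4a1 ranged from 306 cpm (prefix P5) to 1814 cpm (P4), and all 8 pools were above the P6+ level, although only 3 of 8 had a larger share of expressing cells. Without the cell with most reads the pools of prefixes P2, P5 and P6 were at 158, 123.4 and 201 cpm, below the P6+ level of 275 cpm (218 without its own top cell), so the place of these 3 pools rested on 1 cell each. Nr4a2 ranged from 6.59 to 418 cpm and was expressed in at least 1 cell of every pool. Nr4a3 ranged from 0.267 to 306 cpm and Egr1 from 0.148 to 118.8 cpm. For Nr4a2 and Nr4a3, 7 of 8 pools lay above the P6+ level, with the exceptions of prefix P2 for Nr4a2 and prefix P5 for Nr4a3. For Egr1, 6 of 8 lay above it, prefix P6 was level with it and prefix P2 was below it. Without the cell with most reads, Nr4a2 was at 9.09, 0.73 and 0.28 cpm in prefixes P5, P6 and P7, Nr4a3 at 0.32 cpm in P2 and Egr1 at 0.050 cpm in P5, each below the P6+ level. The P6+ level of Nr4a2 was itself 0.65 cpm without 1 cell. The P6+ pool was thus at the low end of the spread of the P6- pools, but for all 4 genes the count of pools above it depended on single cells.

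**Figure D3:**
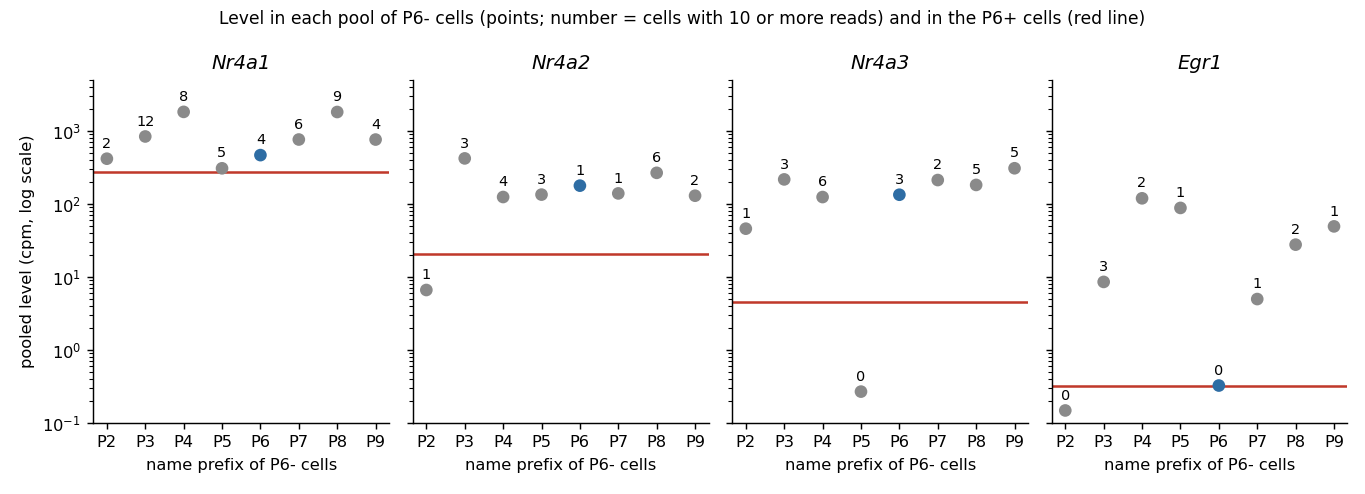
Pooled level in cpm on a log scale of 4 genes in the P6- cells of each name prefix, where the number above a point is the count of expressing cells, the blue point is prefix P6 and the red line is the level in the 32 P6+ cells. For Nr4a1 all 8 points lie above the line, for Nr4a2 and Nr4a3 7 of 8, and for Egr1 6 of 8, with prefix P6 on the line.

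Per kilobase of exon the order of the first 4 genes was the same in both sorts, although in P6+ cells that of Nr4a2 and Nr4a3 rested on the cell with 96.9% of the Nr4a2 reads. In P6+ cells the pooled levels were 78.3 reads per kilobase per 1000000 reads (rpkm) for Nr4a1, 4.99 for Nr4a2, 0.763 for Nr4a3 and 0.0714 for Egr1. In all P6- cells they were 290, 48.96, 26.5 and 8.63 rpkm, followed by 2.09 for Egr2 and 0.0367 for Egr3. Nr4a1 was above Nr4a2 in all 8 prefix pools of P6- cells, and Egr1 was above Egr2 in all 8. In prefixes P2 and P6, where no cell expressed Egr1 or Egr2, this was a matter of a few reads. Egr1 and Egr2 were at 0.0329 and 0.0289 rpkm in P2 and at 0.0722 and 0 rpkm in P6. Nr4a2 was above Nr4a3 in only 5 of 8 and Nr4a3 above Egr1 in 6 of 8, so those neighbours did not differ beyond their spread. Egr2 and Egr3 were each the higher in 3 of 8.

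Joint expression could occur in few P6+ cells, because only 1 expressed Nr4a2, 2 expressed Nr4a3 and none expressed an EGR gene. Of 32 P6+ cells, 17 expressed none of the 6 genes, 14 expressed 1, and 1 cell expressed 2, namely Nr4a2 and Nr4a3. The 13 cells with Nr4a1 had neither of the other NR4A genes, but with so few cells of those genes this says little about joint expression. In the 11 P6- cells of prefix P6 the numbers were 5 cells with none, 4 with 1 and 2 with 2 genes (Nr4a1 with Nr4a3 and Nr4a1 with Nr4a2). Among P6- cells of all prefixes 60 expressed none, 41 expressed 1, 19 expressed 2, 7 expressed 3 and 2 expressed 4.

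At least 1 of the 6 genes was thus expressed by 46.9% of P6+ cells (interval 29.1 to 65.3%), 54.5% of P6- cells of prefix P6 (23.4 to 83.3%) and 53.5% of all P6- cells (44.5 to 62.3%). At least 2 were expressed by 3.13% (0.0791 to 16.2%), 18.2% (2.28 to 51.8%) and 21.7% (14.9 to 29.8%), and these intervals overlapped as well. Nr4a2 or Nr4a3, a combination chosen after the values were seen, was expressed by 2 of 32 P6+ cells (6.25%, 0.766 to 20.8%), 4 of 11 P6- cells of prefix P6 (36.4%, 10.9 to 69.2%) and 37 P6- cells of all prefixes (28.7%, 21.1 to 37.3%). The intervals of the first and the last just failed to meet. This is no test, because the combination was picked from the values and the P6+ cells came from 1 mouse. The intervals overlapped once cells were thinned to equal depth (27.9%, 20.4 to 36.5%). They also overlapped once the 7 P6- cells with little identity RNA were left out (27.9%, 20.1 to 36.7%).

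In P6- cells the share with an NR4A gene was larger among cells that expressed another NR4A gene, though no test was made and the intervals overlapped for each pair. Nr4a3 was expressed in 9 of the 21 cells with Nr4a2 (42.9%, interval 21.8 to 65.98%) and in 16 of the cells without it (14.8%, 8.71 to 22.9%). Nr4a2 was expressed in 12 of the 50 cells with Nr4a1 (24%, 13.1 to 38.2%) and in 9 of 79 without (11.4%, 5.34 to 20.5%), and Nr4a3 in 14 of 50 (28%, 16.2 to 42.5%) and 11 of 79 (13.9%, 7.16 to 23.5%). The Spearman rho of their levels over these cells was 0.10, 0.09 and 0.16. Egr1 was expressed in 6 of 50 cells with Nr4a1 (12%) and 4 of 79 without (5.06%), and 5 of the 10 cells with Egr1 expressed Nr4a3. The single cells with Egr2 and with Egr3 both expressed Nr4a1. These shares are descriptions over cells that share a sort and, in part, a prefix. The P6- cells with Nr4a1 had a median of 1555326 reads and those without it 1456250, and the part of depth was not tested. In P6+ cells those with Nr4a1 had the fewer reads, with a median of 1375813 against 2095616.

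**Figure D4:**
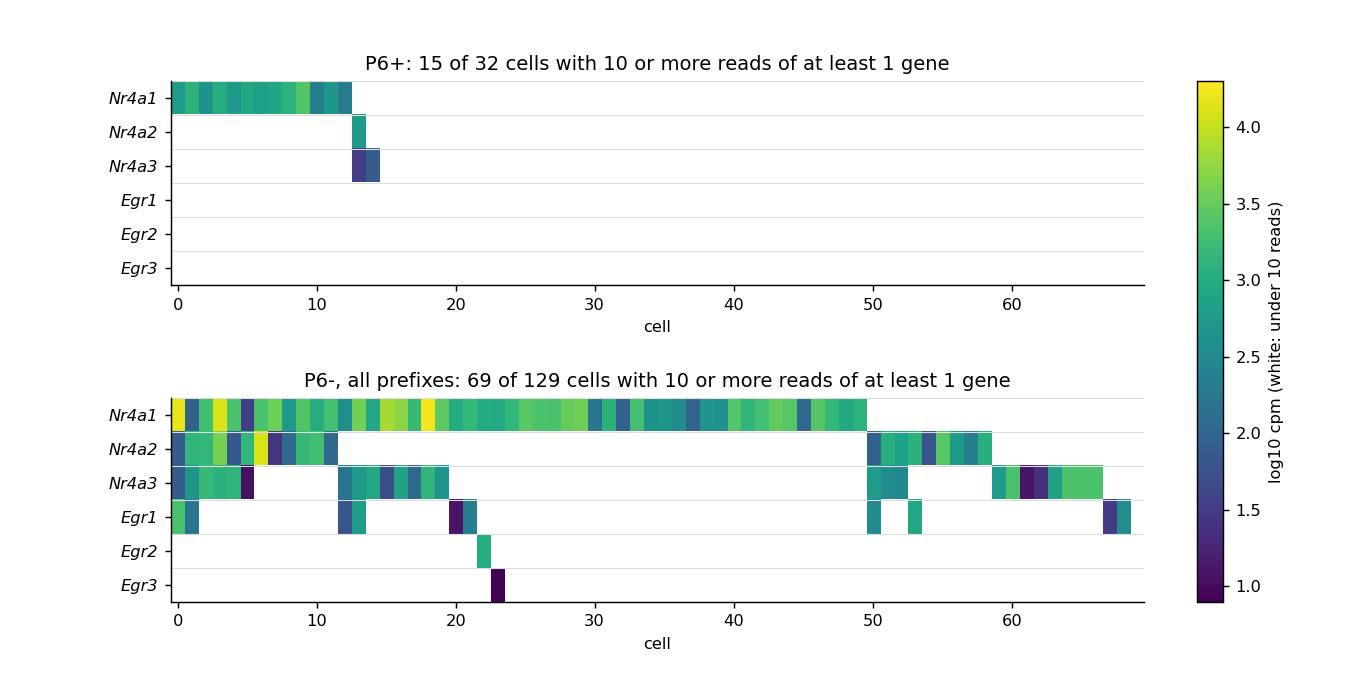
Each column is 1 cell with 10 or more reads of at least 1 of the 6 genes (15 of 32 P6+ cells above, 69 P6- cells below), and colour gives log10 cpm of the genes that reach 10 reads. P6+ cells show Nr4a1 alone in 13 columns and Nr4a2 with Nr4a3 in 1, while 28 of the P6- columns hold 2 or more genes. Only 2 P6+ cells expressed Nr4a2 or Nr4a3, which limits how much overlap the upper panel can show.

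The cofactors of these proteins differed in both directions. Nab1, a corepressor of EGR proteins, was at 419 cpm in P6+ cells, 95.1 in P6- cells of prefix P6 and 184 in all P6- cells, and 6, 1 and 19 cells expressed it. Without the cell with most reads it was at 253 cpm in P6+ cells and 1.18 cpm in P6- cells of prefix P6, and the log2 ratio over all prefixes fell from 1.18 to 0.45. Nab2, the second corepressor and itself an EGR target, was at 37.1, 244 and 97.3 cpm, in 5, 4 and 19 cells. Rxrb, a retinoid X receptor, was at 60.5, 0.13 and 25.3 cpm. Over all prefixes the log2 ratio of Nab2 was -1.37 and of Rxrb 1.22, and without 1 cell they were -0.91 and 0.83. Retinoid X receptors are known to pair with Nr4a1 and Nr4a2. Rxra was at 2.23 cpm in all P6- cells, where 1 cell held 454 of its 455 reads, and had none in prefix P6, Rxrg had 1 read in each of 2 P6- cells, and Egr4, the fourth EGR gene, had 0 reads in all passing cells.

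The ratios within the prefix compare 32 with 11 cells, and many of those given next rest on 1 cell. Among 33 other immediate early genes, 25 had 20 cpm within the prefix, of which 8 were higher (32%) and 9 lower (36%) in P6+ cells, with a median log2 ratio of -0.54, beside 47.2%, 25.5% and 0.73 for all genes. Over all prefixes 0 of 26 were higher and 10 lower (38.5%), with a median of -0.63, beside 24.3%, 26.7% and 0.01. Of the 9 lower genes 3, and of the 10 lower genes 4, had under 20 cpm in P6+ cells and could enter only as lower. The P6- cells of prefix P6 are part of both comparisons. Junb, an AP-1 subunit, was at 972 cpm in P6+ cells, 5308 in P6- cells of prefix P6 and 3633 in all P6- cells, and 90.6%, 81.8% and 88.4% of the cells expressed it, so its lower level was one of reads per cell. Fosl2, another AP-1 subunit, was at 18.2, 81.4 and 217 cpm, but 1 P6- cell held 83.5% of the reads of the prefix pool, and the log2 ratio of -2.10 within the prefix was 0.23 without it (-3.50 and -3.15 over all prefixes). Dusp1, a phosphatase of MAP kinases, was at 415, 1629 and 1445 cpm and was chosen after its values were seen. Its log2 ratio within the prefix was -1.97, and -1.10 without 1 P6- cell. Klf4, a zinc finger factor, had a log2 ratio of -6.63 that came from a single P6- cell with 99.9% of the reads. At the other end Gadd45b (6.18), Nfkbiz (6.18) and Jun (6.12) were higher in P6+ cells within the prefix. Jun had 191 cpm in all P6- cells against 72.9 in P6+ cells, so its direction turned with the cells compared. Nfkbiz was at -0.01 over all prefixes.

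**Figure D5:**
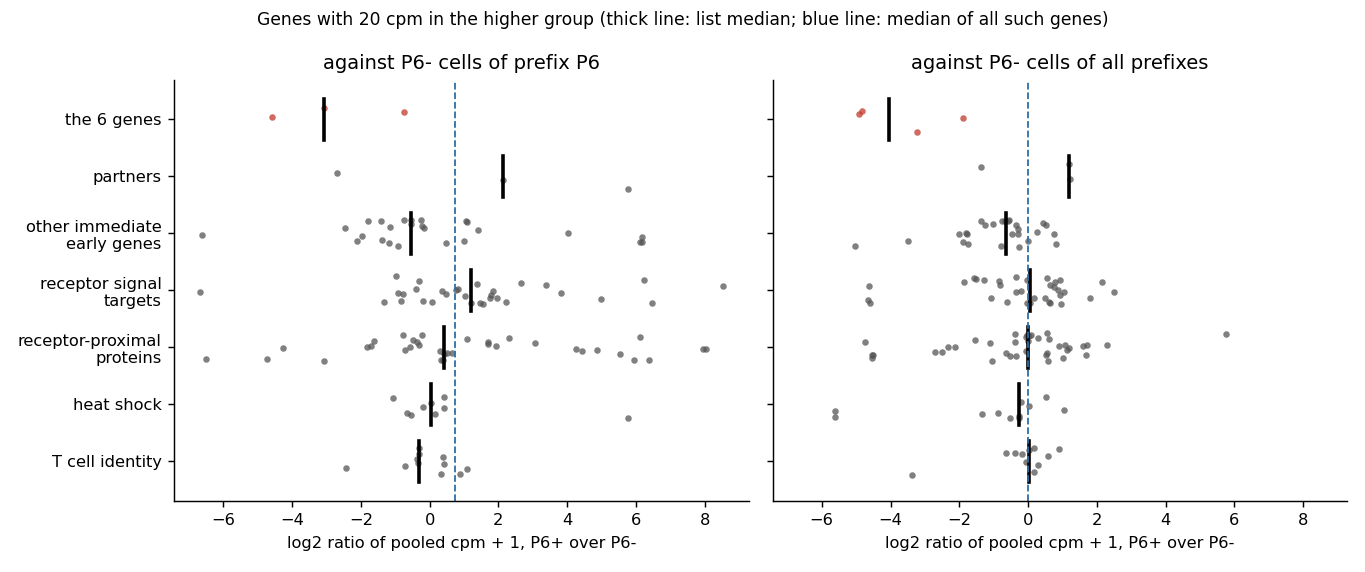
Log2 ratio of pooled levels, P6+ over P6-, for each gene with 20 cpm in the higher pool, by list, against P6- cells of prefix P6 (left) and all P6- cells (right). Thick lines are list medians and the dashed line is the median of all genes (0.73 and 0.01). The 6 genes (red, 3 and 4 of them plotted) lie below 0 in both panels.

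Known target and feedback genes of receptor signals were taken as a separate list. Of 42 such targets and feedback genes, 31 had 20 cpm within the prefix and 17 were higher (54.8%) and 2 lower (6.45%), with a median log2 ratio of 1.21, beside 47.2%, 25.5% and 0.73 for all genes. Over all prefixes 4 of 33 were higher (12.1%) and 8 lower (24.2%), with a median of 0.06, beside 24.3%, 26.7% and 0.01. The highest within the prefix were the inhibitory receptor gene Lag3 (464 cpm in P6+ cells, 0.259 in P6- cells of prefix P6 and 80.6 in all P6- cells), the ubiquitin ligase gene Itch (log2 ratio 6.48) and Cd5 (6.22), a negative regulator of the receptor. Cd5 was at 514 cpm in P6+ cells, 5.89 in P6- cells of prefix P6 and 657 in all P6- cells, so its direction turned over all prefixes (-0.35). The lowest were Spry1 (-6.66), Pdcd1 (-1.32) and Rgs2 (-0.98), and for Spry1 and Pdcd1 a single cell held 99.9% and 99.6% of the reads of the P6- pool. Without the P6- cell with most reads these ratios were 0.07, 5.58 and -0.20. Of the 17 higher genes 7 had under 20 cpm in the P6- pool and could enter only as higher.

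The genes of the proteins that carry the receptor signal were taken as another list. Mef2c had no read in P6+ cells, and Vav1, Mapk3, Elk1, Elk3 and Mef2c had none in the P6- cells of prefix P6. Of 43 such genes, 35 had 20 cpm within the prefix, 15 were higher (42.9%) and 7 lower (20%), with a median of 0.42. These shares were near those of all genes (47.2% and 25.5%, with a median of 0.73). Over all prefixes 9 of 38 were higher (23.7%) and 11 lower (28.9%), with a median of -0.01, near the 24.3%, 26.7% and 0.01 of all genes. Within the prefix 10 of the 15 higher and 5 of the 7 lower had under 20 cpm in the other pool and could enter in 1 direction only. The ends within the prefix were Nfatc3 (8.04), Rasgrp1 (7.95) and Vav1 (6.39), and Ppp3r1 (-6.49), Nfatc2 (-4.74) and Txk (-4.27). Without the P6- cell with most reads the last 3 were -5.14, 3.10 and -0.77, and over all prefixes Vav1 was -0.05. Heat shock genes, which also respond to the handling of cells, had 1 of 9 higher and 1 lower within the prefix and 1 of 11 higher and 3 lower over all prefixes, with medians of 0.04 and -0.27. Their ends within the prefix were Hsp90aa1 (-1.05), Dnajb1 (-0.66) and Hspd1 (-0.54), and Hsph1 (5.77), Dnaja1 (0.43) and Hsp90ab1 (0.43). Without the P6- cell with most reads the first 3 were -0.21, 6.87 and 0.49, so their direction within the prefix, or for Hsp90aa1 its call, rested on 1 cell. The T cell identity genes ran from Trbc1 (-2.44), Cd3g (-0.72) and Trac (-0.36) to Cd3d (1.08), Trbc2 (0.90) and Cd3e (0.42) within the prefix, and 1 of 11 was higher and 1 lower. Without 1 cell Trac was 0.06 and Cd3d was 0.94. Their median was -0.29 within the prefix and 0.03 over all prefixes.

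Nr4a1 was expressed both in P6+ cells with Foxp3, the factor that defines Tregs (6 of 11 cells, 213 cpm), and in those with under 10 Foxp3 reads (7 of 21, 302 cpm), and the 2 P6+ cells with Nr4a2 or Nr4a3 were of the latter. Among P6- cells it was expressed in 5 of 19 cells with Foxp3 (337 cpm) and 45 of the others (1134 cpm), and the 10 P6- cells with Egr1 were all among the others. By the receptor segment Trbv13-2, 8 of 16 P6+ cells with it and 5 of 16 without it expressed Nr4a1, and the 2 P6+ cells with Nr4a2 or Nr4a3 had under 10 reads of it.

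Likeness to the 6 genes from cell to cell was measured for the 1151 genes with 10 reads in at least 25% of P6- cells, which leaves out genes read in fewer cells. Across P6- cells of all prefixes the highest Spearman rho among these to the mean log2 level of the 6 genes was 0.40, for Nop53, a ribosome assembly factor, and it was -0.12 across 32 P6+ cells. The next were Slc38a1 (0.35), Il2rb (0.34), Hspa5 (0.32), Ccnl1, Thrap3, Gm15542 (each 0.28) and Dnaja1 (0.27), of which none passed 0.21 in P6+ cells. The closest to single genes were Hspa5 (0.32) for Nr4a1, Nop53 (0.32) for Nr4a2 and Sf1 (0.29) for Nr4a3. Reads and genes detected varied between cells of 1 sort, and values this low in sparse counts are given only as descriptions.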

How the data were processed

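The authors mapped Smart-Seq2 reads with STAR (2.6.0a) to GRCm38 with Ensembl genes and deposited raw read counts per gene of each cell, without UMIs, normalization or a cell filter; the deposited tetramer sign matched the label of every cell. Counting without strand is assumed, and none of the 6 genes overlaps another annotated gene. Of 53647 rows, 81 names were listed more than once and averaged. The study's limits on reads, genes and mitochondrial share were applied. Its limit on the mapping rate was not used here, and more P6- cells were kept than in the study. Wells received 1 cell each and no doublet caller was run.

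Counts were summed over cells and divided by summed totals (cpm), and ratios used a pseudocount of 1. Calls needed a log2 ratio of 1 or -1 and 20 cpm in the higher pool, with no test because P6+ cells came from 1 mouse. A count of 0 allows 3 counts. The calculation of pooled ratios was checked on simulated counts with Poisson error alone. These had no added spread between cells, so they say nothing on how far single cells move a ratio. Tools were Python 3.11.15, numpy 2.4.6, pandas 2.3.3, scipy 1.17.1 and, for TMM factors on pooled sums, edgeR 4.0.16 under R 4.3.3. Genes named by rule were the 6 genes, their partners, Foxp3, Trbv13-2, the 3 genes at each end of each list by the ratio within the prefix, and the closest by Spearman rho among genes with 10 reads in 25% of P6- cells. Other genes named were chosen after their values were seen (Dusp1, Slc34a2, Gm42826 and list genes given for having few or no reads) or mark cell types. The members and lists were chosen with earlier results of these data known. Alternatives changed the cell limits, pseudocount, pooling, scaling, depth, expression limit, gene length and the cells and prefixes included. Results for some marker genes are not reported here.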

Additional observations from a re-analysis of the deposited data

Results flagged for a closer look

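Over the 8 prefix pools of P6- cells, the level of Egr2 was 51.9 cpm in prefix P4 and at most 0.0983 cpm in the other pools, because 1 of 20 cells (5% of the pool) held nearly all reads. Egr3 stood at 0.541 cpm in prefix P8 and at most 0.216 cpm in the others, again with 1 expressing cell of 20 (5%). Both pools were marked by Dixon's ratio. With 1 expressing cell per gene the pool that holds it must stand apart, so the usual chance rate of about 1 in 20 groups does not apply and the ratio adds nothing to the counts.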

How the results depend on the processing

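No paired analysis was possible because the result comes from no test, and the cells carry numbers that only name them. Within the prefix, 2 genes lower and 0 higher in P6+ cells became 1 lower and 0 higher with the difference of mean log2 levels per cell, and 0 lower and 1 higher when the P6- cell with most reads of each gene was left out, where Nr4a2 turned from -3.07 to 3.62. Over all prefixes, 4 lower genes became 2 with the difference of mean log2 levels. In the remaining alternatives, which include those without 7 P6- cells of low identity level or with a mitochondrial limit of 5% (both chosen after seeing the data), these counts stayed within 1.5 times, although with the 5% limit the 2 genes counted within the prefix were Nr4a1 (-1.89) and Nr4a2 (-4.35) in place of Nr4a2 and Nr4a3, whose P6- pool fell under 20 cpm (-1.61). Over all prefixes the log2 ratio kept its sign in 21 of 21 alternatives for each of the 6 genes, from -2.22 to -0.46 for Nr4a1, -6.92 to -1.05 for Nr4a2, -5.92 to -1.17 for Nr4a3, -6.53 to -0.42 for Egr1, -5.94 to -0.011 for Egr2 and -1.39 to -0.023 for Egr3, of which the last values of Egr2 and Egr3 are near 0. Within the prefix Nr4a1 kept it in 11 of 13, from -1.89 to 0.45, and Nr4a3 in 13 of 13, from -5.66 to -0.999, the latter without 1 P6- cell, where the ratio no longer passed the 2-fold limit. The 11 P6- cells of prefix P6 and the absence of molecular tags limit all shares and levels.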

Other observations

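Some transcripts separated the sorts within a prefix far more sharply than any of the 6 genes. Slc34a2, which encodes a phosphate transporter of epithelia, had 10 or more reads in all 11 P6- cells of prefix P6 (25 to 429 reads, median 186) and in every P6- cell of the other prefixes, where its lowest value over all P6- cells was 15 reads and its highest 4050. In P6+ cells 4 of 32 reached 10 reads and the highest had 16. Gm42826 showed the same split, with 10 of 11 P6- cells of prefix P6 and 0 of 32 P6+ cells at 10 reads. Both genes were chosen after their values were seen, and the cause was not tested.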
